A study of Mus musculus with 5 samples.

Results

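The 10 genes described here encode the core machinery that copies and transcribes mitochondrial DNA, together with DNA-binding regulators of its nuclear genes. They were taken by name from a table of 17015 genes measured by RNA-seq in mouse tibialis anterior (TA) muscle, and all 10 were found and passed the minimum of 0.5 mean FPKM used for testing. The genes are Tfam, Tfb2m, Polrmt and Tfb1m, Polg, Polg2, Twnk and Ssbp1, and Nrf1 and Gabpa. FPKM is the number of sequenced fragments divided by transcript length (in kilobases) and by library size, so it is a level per unit of length. None of the 10 genes passed the test between the groups, beside 0.453% of all genes tested. In 4 of them (Tfam, Tfb1m, Tfb2m and Twnk) each WT control library lay below both libraries labelled skmNrip1-/-, beside 15.8% of all genes tested.

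The study asked what skeletal muscle does without RIP140, a transcriptional coregulator of nuclear receptors encoded by Nrip1. TA was taken from sedentary male mice at 8 weeks of age. The 3 WT control libraries come from mice described as Cre-negative littermates carrying Nrip1 fl/fl alleles (C57BL/6J), in which loxP sites flank the exon with the coding sequence. The 2 libraries labelled skmNrip1-/- come from Nrip1 fl/fl mice that also carry Cre recombinase under the myogenin promoter, which is active in skeletal muscle cells and not in the blood vessels, nerve and connective tissue of the same muscle. The TA is a fast muscle, and 6 genes listed for fast fibres (Myh4, Myh1, Actn3, Ckm, Acta1, Pvalb) summed to between 42300 and 62750 FPKM per library. The largest of these, Acta1 and Ckm, are not restricted to fast fibres, and Myh4 alone stood at 6416 to 8478 FPKM. Slow-fibre markers summed to 11.2 to 54.6 FPKM.

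The targeted gene ran against its label. Nrip1 (ENSMUSG00000048490) stood at 4.64, 7.69 and 6.55 FPKM in WT control and at 25.3 and 22.5 FPKM in the libraries labelled skmNrip1-/-, a log2 fold change of 1.94 (standard error 0.21, limma adjusted p = 0.0261). One value per gene does not separate the exon removed by Cre from the rest of the transcript. Every direction below is therefore that of the libraries labelled skmNrip1-/-, and it rests on those labels. The deposited FPKM were already scaled between libraries (median ratio 1.002 in each of the 5), while transcripts of the 13 protein-coding mtDNA genes made up 45.4% to 50.7% of summed FPKM in WT control and 58.6% and 60.9% in the libraries labelled skmNrip1-/-. The largest single part of this was mt-Atp8, at 148500 to 196100 FPKM in WT control and 283100 and 299700 FPKM in the libraries labelled skmNrip1-/-. For comparison, mt-Atp6 was at 26760 to 37710 FPKM and at 45810 and 47640 FPKM. The mt-Atp8 gene is very short and the length used for it is not given. Its weight in these sums, and in any rescaling to them, is therefore uncertain. Relative depth, with WT control replicate 1 set to 1, was 1.097 and 1 in WT control replicates 2 and 3. It was 0.812 and 0.969 in the libraries labelled skmNrip1-/-, both below every WT control library. Depth thus differed along with the groups, and the absolute number of fragments is unknown.

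Mitochondria keep a small circular genome that encodes a few subunits of the respiratory chain and the RNAs to translate them, and the proteins that copy and read this genome are encoded by nuclear genes, made in the cytosol and imported. POLRMT, a single-subunit RNA polymerase, starts transcription with TFAM, which bends promoter DNA, and TFB2M, which opens it, and its short transcripts also prime replication. The replisome joins DNA polymerase gamma (POLG and its accessory subunit POLG2), the helicase Twinkle (TWNK) and the single-strand binding protein SSBP1. TFAM also coats the genome and packs it into nucleoids. Muscle is rich in mitochondria, and NRF-1 and GABP (whose DNA-binding subunit is GABPA) are known activators of nuclear genes for mitochondrial proteins.

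Promoter sequence was examined because NRF-1 and GABP are themselves among the 10 genes. RefSeq (GRCm38.p6) held 300-base windows, 250 before and 50 after each annotated start, for all 10 genes, with 12 windows in total since Nrf1 and Twnk each have 2 starts. Exact matches on both strands were sought to GCGCATGC (NRF-1), CCGGAAG (the ETS core that GABP binds), AAGGTCA (the core of the estrogen-related receptor site) and GGGCGG (the Sp1 GC box), letters chosen after the expression values were known. The ETS core occurred in 7 of the 12 windows (7 genes), against 8.86% of all 32851 RefSeq windows. The NRF-1 core occurred in 2 of the 12 windows (2 genes), against 2.71%. The estrogen-related receptor core occurred in 1 window, against 4.72%, and the Sp1 GC box in 7 windows (7 genes), against 35.7%. The matches did not overlap between motifs. They are letters in a window and do not show binding.

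The sites with an ETS core are shown in 30 bases each, 5′ to 3′ on the strand of the gene, with the match in capitals, because this core lay in the windows of 7 of the 10 genes. Positions count from +1 at the RefSeq start, and CTTCCGG is the same core read on the other strand.
Tfam, -47 to -41, chr10:71238073-71238102, minus strand: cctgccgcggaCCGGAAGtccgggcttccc
Ssbp1, -47 to -41, chr6:40471410-40471439, plus strand: ggctccgtgcgCCGGAAGcgagccgctggc
Polrmt, -43 to -37, chr10:79746606-79746635, minus strand: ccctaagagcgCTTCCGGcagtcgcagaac
Polg, -38 to -32, chr7:79466293-79466322, minus strand: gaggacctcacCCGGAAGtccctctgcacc
Polg2, -29 to -23, chr11:106779548-106779577, minus strand: cgggtgacgctCTTCCGGgggcgtggtcta
Gabpa, -93 to -87, chr16:84835020-84835049, plus strand: gagggtaagtgCTTCCGGgtccctcagcta
Twnk second start, -110 to -104, chr19:45006437-45006466, plus strand: ctaaccggtgaCTTCCGGttccggggttgt
Twnk second start, -66 to -60, chr19:45006481-45006510, plus strand: ggagagttttgCTTCCGGagtcaccgcgag

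In Tfam, Ssbp1, Polrmt, Polg and Polg2 the ETS core lay between -47 and -23 of the RefSeq start, on either strand, while in Gabpa and Twnk it lay farther upstream. The RefSeq start lies downstream of the outermost 5′ end in GENCODE M21 by 236 bases for Tfam, 199 for Gabpa, 116 for Ssbp1, 89 for Polg and 895 for the second start of Twnk, so these sites are upstream of the start in RefSeq and inside the gene in GENCODE. The NRF-1 core lay upstream in Polrmt and, on the other strand, just inside the transcript in Tfb2m, and the estrogen-related receptor core lay before the other start of Twnk.
Polrmt, NRF-1 core, -133 to -126, chr10:79746696-79746725, minus strand: agagtatttctGCGCATGCtctcttgccgc
Tfb2m, NRF-1 core, 14 to 21, chr1:179546245-179546274, minus strand: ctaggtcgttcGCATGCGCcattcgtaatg
Twnk first start, estrogen-related receptor core, -123 to -117, chr19:45005529-45005558, plus strand: agggtattcacAAGGTCActgcacctagct

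Of the 4 genes whose libraries did not overlap, Tfam and Twnk had an ETS core, Tfb2m an NRF-1 core, and Tfb1m only an Sp1 GC box. Of the 6 whose libraries overlapped, all but Nrf1 had an ETS core. A promoter match was thus present on both sides of that divide. Nrf1 had none of the first 3 motifs in either window.

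**Figure D1:**
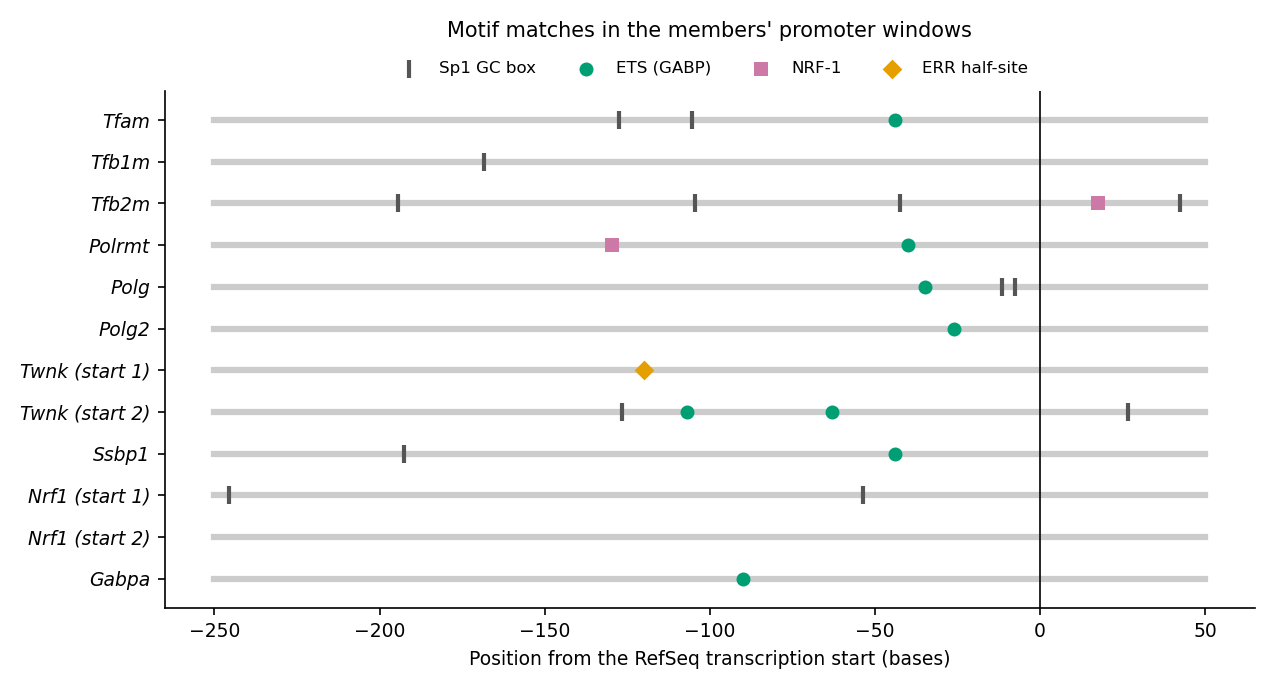
Each grey line is a RefSeq promoter window of 300 bases, drawn by position in bases from the transcription start (vertical line), and each symbol is the centre of an exact motif match on either strand. Diamonds mark the estrogen-related receptor (ERR) core. ETS cores (circles) sit near 7 of the 10 genes, and in Tfam, Ssbp1, Polrmt, Polg and Polg2 they lie between -47 and -23.

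The groups were compared by limma over 12148 genes on log2(FPKM + 0.1), and calls required a Benjamini-Hochberg adjusted p no higher than 0.05 together with a change of 1.2-fold or more. On this scale fold changes understate the change of low genes. In this comparison 0.453% of all genes were called (45 higher and 10 lower), and 0 of the 10 genes were. At an unadjusted p of 0.05 or less, 2 of the 10 (Tfam and Tfb1m) were higher, against 6.57% of all genes, and 0 were lower, against 5.33%. That count of 2 became 0 without either of the libraries labelled skmNrip1-/- (p up to 0.103 for Tfam and 0.115 for Tfb1m), 1 without WT control replicate 3 and 4 without WT control replicate 2. The libraries labelled skmNrip1-/- both exceeded each WT control library in 4 of the 10 genes, against 15.8% of all genes, and below in 0, against 14.4%. With 3 libraries against 2 there are 10 splits, so a one-sided exact permutation test of a single gene cannot give a p below 0.1. The log2 fold change was above 0 in 8 of the 10 genes with a median of 0.13 against -0.00054 for all genes, but after rescaling the libraries to TPM (length-corrected shares that sum to the same total in every library, mtDNA-encoded transcripts included) it was above 0 in 2 of 10 with a median of -0.17, where the median of all genes moved to -0.29. Relative to all genes the median difference was 0.12 under TPM. In bulk tissue, fewer cells of a type and less RNA per cell cannot be told apart.

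Tfam, the nucleoid-packing and promoter-bending factor, separated the groups by more than the range within either. Its gene (ENSMUSG00000003923) spans 71225464 to 71238280 on the minus strand of chromosome 10 (GRCm38). The level was 24.6, 23.0 and 23.5 FPKM in the 3 WT control libraries, and 30.5 and 29.2 FPKM in those labelled skmNrip1-/-. Both values labelled skmNrip1-/- lay above the highest WT control value, that of replicate 1. The means were 23.7 ± 0.782 (SD, n = 3) and 29.8 ± 0.930 FPKM (SD, n = 2). The log2 fold change was 0.33 (standard error 0.10, 95% interval 0.10 to 0.56), with an unadjusted limma p of 0.0128 and an adjusted p of 0.276, so Tfam was not called. After rescaling to TPM it was 0.03, which is 0.32 above the median of all genes.

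Tfb2m, the factor that melts the promoter for POLRMT, had the highest FPKM of the 10. Its gene (ENSMUSG00000026492) spans 179528055 to 179546267 on the minus strand of chromosome 1. Levels of 28.6, 33.04 and 30.3 FPKM were measured in WT control, and 35.2 and 35.8 FPKM in the libraries labelled skmNrip1-/-. The groups did not overlap, but the gap between 33.04 and 35.2 was smaller than the WT control range. Its log2 fold change was 0.21 (standard error 0.11, 95% interval -0.04 to 0.47, limma adjusted p = 0.497), and -0.08 after rescaling to TPM. The Tfb2m transcript shares 1187 bases at 99.3% identity with the pseudogene Gm1818, which was not analysed here, so the split of fragments between them is uncertain.

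Polrmt, the mitochondrial RNA polymerase, did not separate the groups. Its gene (ENSMUSG00000020329) lies at 79736123 to 79746581 on the minus strand of chromosome 10. WT control libraries had 8.33, 7.14 and 8.61 FPKM, and the libraries labelled skmNrip1-/- had 9.86 and 7.10 FPKM. One of these was the highest of all 5 and the other the lowest. The log2 fold change was 0.06 (standard error 0.17, 95% interval -0.34 to 0.47, limma adjusted p = 0.922), and it was -0.17 without skmNrip1-/- replicate 1 and 0.30 without replicate 2.

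Tfb1m is named with Tfb2m but acts chiefly as the enzyme that dimethylates the small ribosomal RNA of mitochondria. The gene (ENSMUSG00000036983) spans 3519256 to 3557781 on the minus strand of chromosome 17. Its level was 4.74, 4.77 and 3.82 FPKM in WT control and 5.85 and 5.78 FPKM in the libraries labelled skmNrip1-/-. The latter were close together and above every WT control library, of which replicate 3 stood apart at the low end. The means were 4.44 ± 0.538 (SD, n = 3) and 5.82 ± 0.0473 FPKM (SD, n = 2). This gave the largest log2 fold change of the 10, 0.39 (standard error 0.14, 95% interval 0.05 to 0.73), with an unadjusted limma p of 0.03005 and an adjusted p of 0.356. Under TPM the value was 0.09. Tiam2 overlaps 142 bases of its exons (3.93%) on the opposite strand, and use of strand in counting is not stated. Tiam2 stood between 0.775 and 1.04 FPKM in all libraries.

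Among the replication genes, Polg encodes the catalytic subunit of the mitochondrial DNA polymerase. It (ENSMUSG00000039176) spans 79446231 to 79466362 on the minus strand of chromosome 7. WT control values were 12.0, 12.8 and 11.3 FPKM, and those labelled skmNrip1-/- were 12.6 and 12.4 FPKM, both within the WT control range. The log2 fold change was 0.06 (standard error 0.11, 95% interval -0.20 to 0.31, limma adjusted p = 0.887). Polg2, the accessory subunit that holds the polymerase on its template, gave 2.22, 1.93 and 2.04 FPKM in WT control and 2.04 and 2.03 FPKM in the libraries labelled skmNrip1-/-. Its values (ENSMUSG00000020718, chromosome 11, 106768253 to 106779537, minus strand) lay inside the WT control range as well, with a log2 fold change of -0.02 (95% interval -0.37 to 0.33, limma adjusted p = 0.981). Both polymerase subunits share exon bases with genes on the opposite strand, Polg with Fanci (921 bases, 8.57%) and Polg2 with Milr1 (132 bases, 3.03%). Fanci reached at most 0.0413 FPKM and Milr1 at most 0.278 FPKM.

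Twnk, the helicase that unwinds mtDNA ahead of the polymerase, was the replication gene with the largest difference. It (ENSMUSG00000025209) lies at 45005663 to 45012762 on the plus strand of chromosome 19. Levels were 7.24, 8.69 and 8.00 FPKM in WT control and 8.94 and 9.18 FPKM in the libraries labelled skmNrip1-/-. The groups did not overlap, with a gap between 8.69 and 8.94 that was smaller than the WT control range. The log2 fold change was 0.19 (standard error 0.12, 95% interval -0.10 to 0.47, limma adjusted p = 0.621), and -0.11 under TPM. Of its exon bases, 507 (12.6%) overlap Mrpl43 on the opposite strand, and Mrpl43 stood at 23.8 to 28.9 FPKM with a log2 fold change of 0.06 (limma adjusted p = 0.893).

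Ssbp1, which coats the unwound strand, was measured at 25.4, 20.7 and 21.6 FPKM in WT control and at 25.2 and 22.2 FPKM in the libraries labelled skmNrip1-/-. Both of these lay within the WT control range. The gene (ENSMUSG00000029911, chromosome 6, 40471352 to 40484700, plus strand) gave a log2 fold change of 0.07 (standard error 0.13, 95% interval -0.24 to 0.38, limma adjusted p = 0.884). A processed pseudogene, Gm12115, shares 447 bases at 97.8% identity with its transcript and was not analysed here, so the value is uncertain to that extent.

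Nrf1 encodes the activator NRF-1, and its libraries labelled skmNrip1-/- lay far apart. It (ENSMUSG00000058440) spans 30047988 to 30153458 on the plus strand of chromosome 6. WT control gave 5.09, 3.97 and 4.75 FPKM, and the libraries labelled skmNrip1-/- gave 5.64 and 3.31 FPKM, the highest and the lowest of the 5. The log2 fold change of -0.08 had the widest interval of the 10 (-0.65 to 0.49, limma adjusted p = 0.931), and it was 0.30 without skmNrip1-/- replicate 2 and -0.46 without replicate 1. Gabpa, the DNA-binding subunit of GABP, gave 5.66, 8.30 and 6.83 FPKM in WT control and 8.01 and 8.86 FPKM in the libraries labelled skmNrip1-/-. WT control replicate 2 lay between these last values, so the groups overlapped. Its log2 fold change (ENSMUSG00000008976, chromosome 16, 84834925 to 84863779, plus strand) was 0.29 (standard error 0.17, 95% interval -0.12 to 0.71, limma adjusted p = 0.584). Atp5j, at 558 to 746 FPKM, shares 397 of the Gabpa exon bases (6.98%) on the opposite strand, and its log2 fold change was 0.06.

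**Figure D2:**
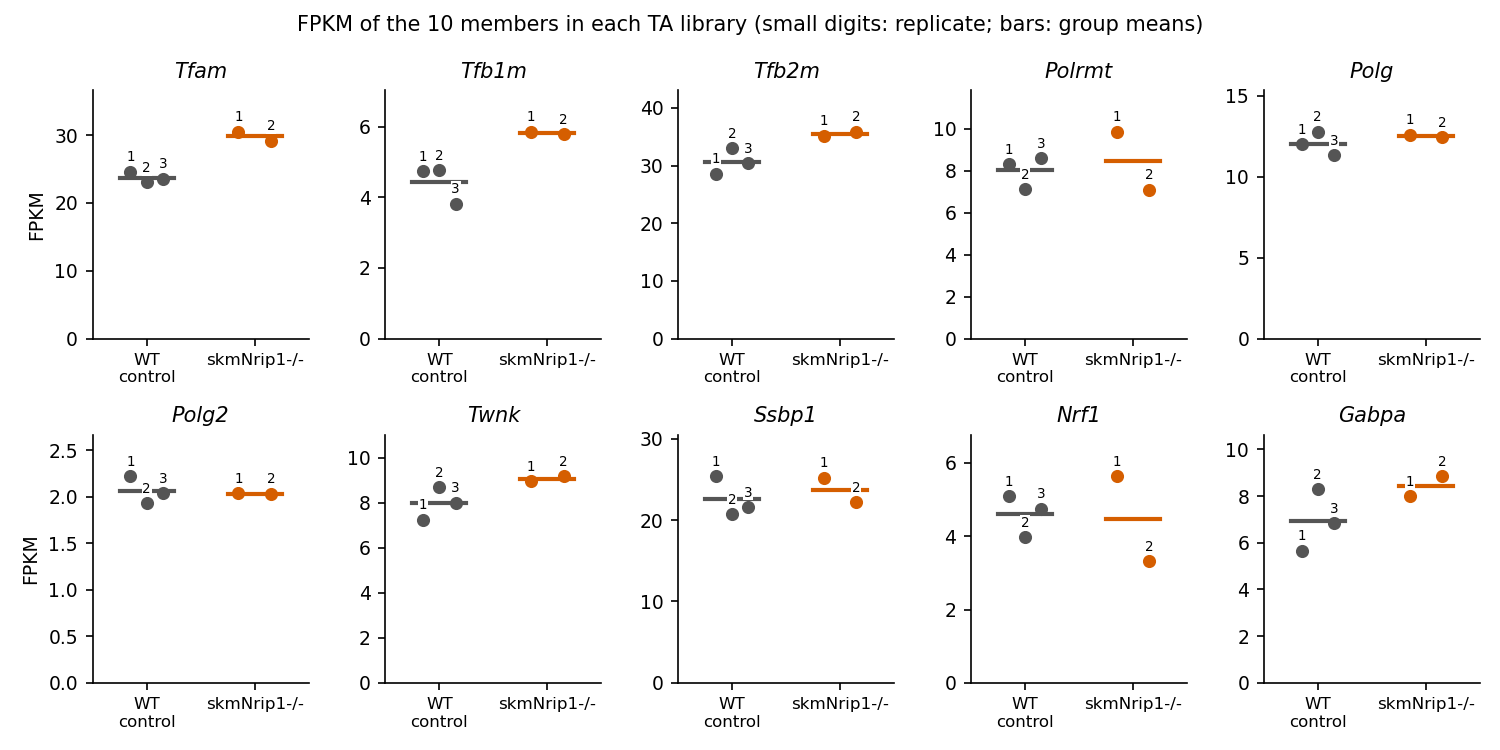
Points are FPKM of each gene in the 3 WT control (grey) and 2 skmNrip1-/- labelled (orange) TA libraries, with replicate numbers beside them and bars at the group means, and each axis starts at 0. Tfam, Tfb1m, Tfb2m and Twnk have both orange points above every grey point, and Polrmt and Nrf1 have the orange points at both extremes.

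The intervals show what these 5 libraries could resolve. On the deposited scaling their upper bounds were under 1.5-fold for 8 of the 10 genes, the exceptions being Tfb1m (1.65-fold) and Gabpa (1.64-fold). These bounds rest on all 5 libraries and do not exclude a larger increase. On the same scaling, log2 fold changes without skmNrip1-/- replicate 2 were 0.36 for Tfam, 0.30 for Polrmt and 0.30 for Nrf1. Without replicate 1 they were 0.30, -0.17 and -0.46. All bounds given here are for that scaling. With TPM over nuclear genes only, log2 fold changes were larger for Tfam (0.41, standard error 0.11) and Tfb2m (0.29, standard error 0.15), and the bounds do not carry over. Only the intervals of Tfam and Tfb1m lay wholly above 0, with lower bounds of 1.07-fold and 1.04-fold, and these intervals are not adjusted for the number of genes tested. Where an interval spans 0, as for Polg, these libraries do not tell apart no difference from the other values inside it.

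**Figure D3:**
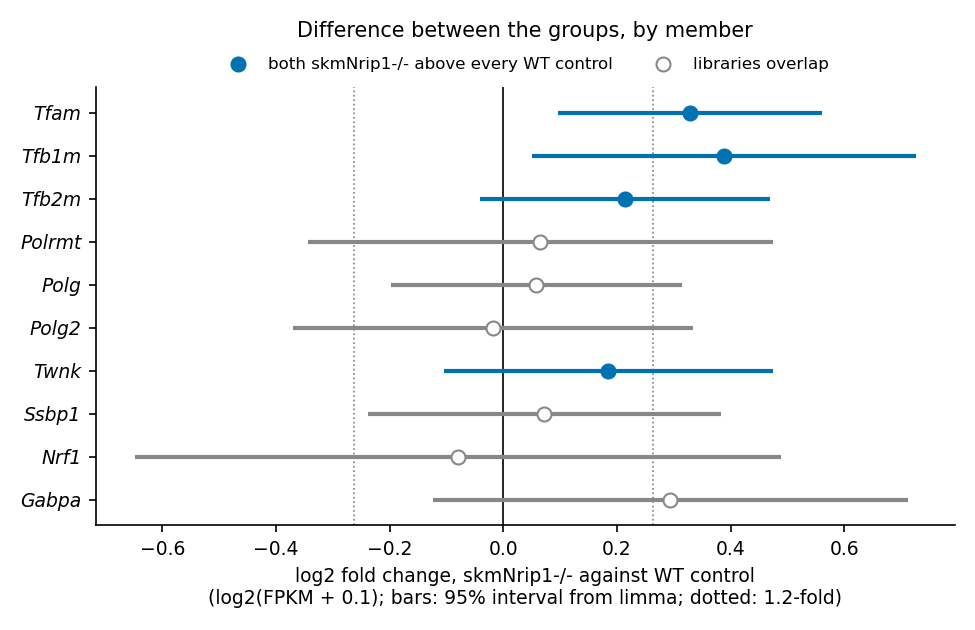
Points are log2 fold changes of the libraries labelled skmNrip1-/- against WT control and lines are 95% intervals from limma, on the log2(FPKM + 0.1) scale. Tfam (0.33) and Tfb1m (0.39) have intervals above 0, none was called, and under TPM both stay above 0 (0.03 and 0.09) while Tfb2m (-0.08) and Twnk (-0.11) fall below it.

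Levels in FPKM are per unit of length and are set beside each other here, but the length used for each gene is not given. Annotated transcripts of Polg, for example, ran from 149 to 7837 bases. The order and the ratios between genes are therefore those of the deposited FPKM and may not be those of transcript number. Mean WT control levels ran from 30.7 FPKM for Tfb2m through 23.7 for Tfam, 22.6 for Ssbp1, 12.0 for Polg, 8.03 for Polrmt, 7.98 for Twnk, 6.93 for Gabpa, 4.603 for Nrf1 and 4.44 for Tfb1m to 2.06 for Polg2. Neighbours in this order with overlapping WT control ranges were Tfam and Ssbp1, Polrmt and Twnk, Twnk and Gabpa, and Nrf1 and Tfb1m. The other neighbouring pairs had WT control ranges that did not overlap. In deposited FPKM the catalytic subunit Polg was thus 5.41 to 6.62 times its accessory subunit Polg2 over all 5 libraries, and Tfb2m was 6.02 to 7.94 times Tfb1m.

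Ratios of pairs of genes within a library do not depend on how libraries are scaled, and the pairs were picked after the values were seen. The FPKM ratio of Tfam to Polg was 2.04, 1.80 and 2.08 in WT control and 2.42 and 2.34 in the libraries labelled skmNrip1-/-. Tfam to Ssbp1 was 0.967, 1.11 and 1.09 against 1.21 and 1.31. In both pairs the groups did not overlap. Against the helicase they did, with Tfam to Twnk at 3.40, 2.65 and 2.94 in WT control and 3.41 and 3.18 in the libraries labelled skmNrip1-/-. Twnk to Polg was 0.602, 0.680 and 0.707 against 0.709 and 0.738, a gap smaller than the WT control range. The ratios Tfam to Polrmt, Tfb1m to Polrmt, Tfb2m to Polrmt, Tfb2m to Tfb1m, Polg to Polg2 and Gabpa to Nrf1 all overlapped. No test was run on these ratios.

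The mtDNA-encoded mRNAs, the product of this machinery, had larger log2 fold changes than any of the 10 genes. All 13 were higher in each library labelled skmNrip1-/- than in any WT control library, beside 15.8% of all genes tested. The log2 fold changes of the 13 ran from 0.44 (mt-Cytb, a complex III subunit) to 0.85 (mt-Nd3, a complex I subunit), with a median of 0.56, or 0.26 under TPM. None was called, and 8 of the 13 were higher at an unadjusted limma p of 0.05 or less, beside 6.57% of all genes. The count of 8 rested on single libraries. It was 13 without WT control replicate 1, 5 without replicate 2 and 1 without replicate 3, and 1 and 0 without skmNrip1-/- replicates 1 and 2. For mt-Nd3 the values were 10030, 7208 and 7999 FPKM against 13130 and 17110 FPKM (limma adjusted p = 0.235). The sum of the 13 per unit of Tfam was 22000, 22700 and 18670 in WT control and 24770 and 26860 in the libraries labelled skmNrip1-/-. The groups did not overlap, and mt-Atp8, whose weight is uncertain, was the largest part of each sum. These transcripts are cut from shared polycistronic precursors and are not independent of each other.

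The 6 lists of other nuclear genes of the pathway held 69 tested genes, of which 53 had a log2 fold change above 0, 18 were higher and 1 lower at an unadjusted p of 0.05 or less (6.57% and 5.33% of all genes), and none was called (smallest limma adjusted p = 0.215). In 31 of them the groups did not overlap with the libraries labelled skmNrip1-/- higher, and in 2 with them lower (15.8% and 14.4% of all genes). The lists below are to be read against the same shares. The median was 0.20, beside -0.00054 for all genes tested. Under TPM the medians of all lists of nuclear genes were below 0, apart from transcription elongation and termination (0.0022), beside -0.29 for all genes.

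The first lists hold genes that act with POLRMT after initiation and those that process its transcripts. In transcription elongation and termination, 6 of 6 tested genes were above 0 and 4 did not overlap, with a median of 0.28. The largest was Mterf2, of the mitochondrial termination factor family, at 8.60, 11.2 and 8.93 FPKM in WT control and 13.9 and 13.6 FPKM in the libraries labelled skmNrip1-/- (log2 fold change 0.53, unadjusted p = 0.00791, limma adjusted p = 0.241). The smallest was Mrpl12, a ribosomal protein that also binds POLRMT, at 0.10. Mterf1b was under the minimum. In RNA processing and stability, 15 of 19 genes were above 0, 11 did not overlap and 6 had an unadjusted limma p of 0.05 or less, all 6 higher, with a median of 0.25 (-0.04 under TPM). The count of 6 became 1 without either of the libraries labelled skmNrip1-/-, 3 without WT control replicate 1 and 9 without WT control replicate 2. Ptcd3, of the small mitochondrial ribosomal subunit, gave 25.4, 33.7 and 26.6 FPKM against 41.5 and 41.7 FPKM (log2 fold change 0.55, unadjusted p = 0.00712, limma adjusted p = 0.234). Pnpt1, the mitochondrial polynucleotide phosphorylase, had the largest value of the list at 0.56, and Fastkd3, an RNA-binding FASTK family protein, the lowest at -0.27.

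Nucleoid proteases and chaperones were above 0 in 9 of 9 genes, with 6 that did not overlap, 4 at an unadjusted limma p of 0.05 or less (0 and 1 without skmNrip1-/- replicates 1 and 2) and a median of 0.21 (-0.09 under TPM). Atad3a, an inner-membrane ATPase associated with nucleoids, was at 22.8, 23.1 and 21.5 FPKM in WT control and at 30.3 and 28.2 FPKM in the libraries labelled skmNrip1-/- (log2 fold change 0.38, unadjusted p = 0.00784, limma adjusted p = 0.241). The chaperonin Hspd1 had the largest log2 fold change, 0.40, and the prohibitin Phb2 the smallest, 0.08. The replication and repair enzymes were less uniform, with 5 of 9 above 0, 2 genes whose libraries labelled skmNrip1-/- were both above every WT control library and 2 with both below, and a median of 0.06 (-0.24 under TPM). Exog, a mitochondrial nuclease, was at the top with 0.26. Rnaseh1, which removes RNA primers, was at the bottom, at 4.34, 5.32 and 5.45 FPKM in WT control and 3.81 and 4.02 FPKM in the libraries labelled skmNrip1-/- (log2 fold change -0.35, unadjusted p = 0.0479, limma adjusted p = 0.416). Dna2 was under the minimum and Pif1 was not analysed here.

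Genes that supply nucleotides to the replisome were mixed, with 9 of 14 above 0, 5 of these without overlap, 4 higher at an unadjusted limma p of 0.05 or less (1 without WT control replicate 3 or either of the libraries labelled skmNrip1-/-), and a median of 0.06 (-0.21 under TPM). Sucla2, a subunit of the succinyl-CoA ligase whose loss is known to deplete mtDNA, was at 291.8, 344.5 and 286.7 FPKM in WT control and 440.2 and 424.4 FPKM in the libraries labelled skmNrip1-/- (log2 fold change 0.50, unadjusted p = 0.00588, limma adjusted p = 0.215). Cmpk2, a mitochondrial nucleotide kinase, was lowest at -0.35, with overlapping libraries. Among the partners and regulators of NRF-1 and GABP, 9 of 12 were above 0 and 3 did not overlap, beside 15.8% of all genes, with a median of 0.08 (-0.21 under TPM) that was 0.23 without WT control replicate 2 and 0.0078 without skmNrip1-/- replicate 2. Ppargc1b, the coactivator PGC-1β, gave 3.39, 4.94 and 4.39 FPKM against 6.30 and 6.49 FPKM (log2 fold change 0.60, limma adjusted p = 0.271). Esrra, the estrogen-related receptor that works with these coactivators, gave 81.3, 90.4 and 83.1 FPKM against 107 and 111 FPKM (log2 fold change 0.36, unadjusted p = 0.009998, limma adjusted p = 0.254). Myc, a growth regulator, was lowest at -0.23. Ppargc1a, the coactivator PGC-1α, named after its value was seen, overlapped between the groups at 5.50, 9.86 and 7.70 FPKM against 7.55 and 7.05 FPKM.

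**Figure D4:**
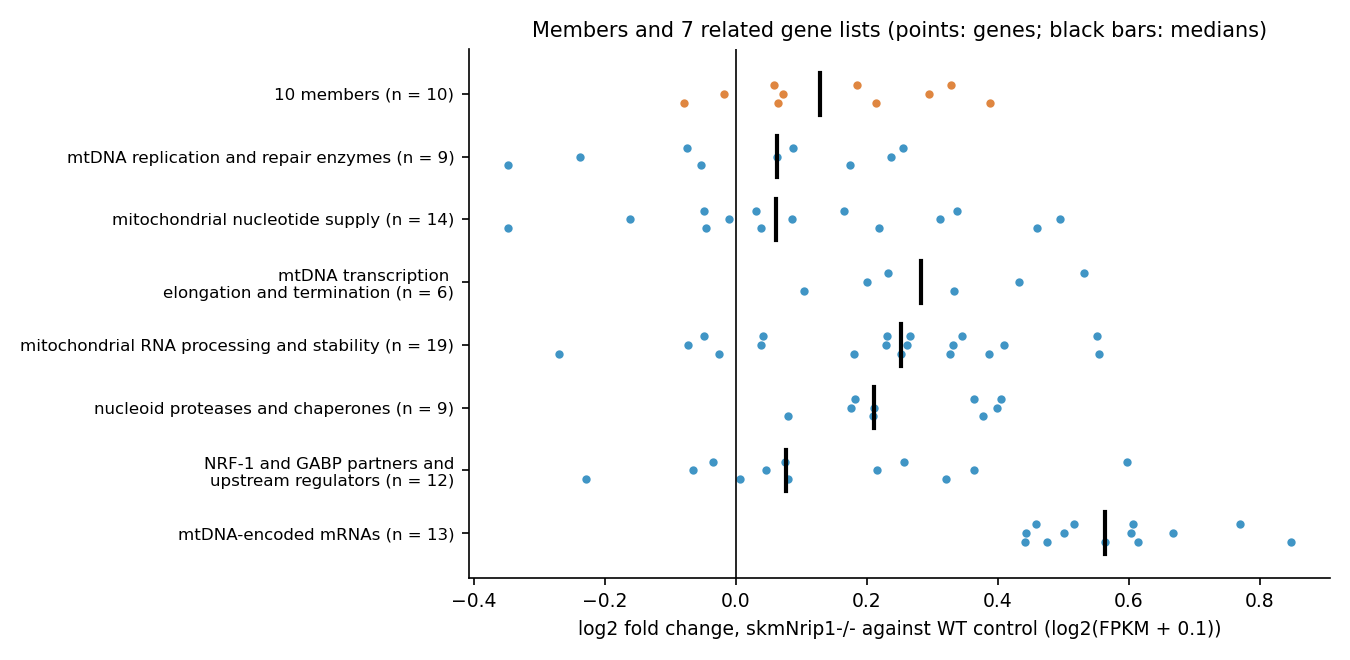
Each point is the log2 fold change of a tested gene (libraries labelled skmNrip1-/- against WT control, log2(FPKM + 0.1) scale) and black bars are list medians. The 10 genes have a median of 0.13 and the mtDNA-encoded mRNAs 0.56, and under TPM these are -0.17 and 0.26 beside -0.29 for all genes.

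Markers of fibre type and of other cells differed beside these values, and their part in the results was not tested. The slow-fibre light chain Myl2 was at 2.03, 1.85 and 9.68 FPKM in WT control and 42.1 and 33.6 FPKM in the libraries labelled skmNrip1-/- (log2 fold change 3.46), and summed slow-fibre markers were 11.2 to 19.0 FPKM against 40.7 to 54.6 FPKM. Only Myl2 of the 4 slow-fibre markers did not overlap. The 6 genes listed for fast fibres summed to 48390 to 62750 FPKM against 42300 to 43820 FPKM. Of these, 3 were below every WT control library: Actn3 (log2 fold change -0.77), and Ckm and Acta1, which are not restricted to fast fibres. Myh4, Myh1 and Pvalb overlapped between the groups. Red-cell markers (Hba-a1, Hbb-bs, Alas2) summed to 284 to 429 FPKM against 456 to 562 FPKM, and 2 of 3 were above every WT control library. Sums overlapped between the groups for endothelial, macrophage, adipocyte, fibroblast, satellite-cell and Schwann-cell markers, and those of dividing cells were 17.8 to 19.5 FPKM against 15.03 to 17.7 FPKM. None of these marker genes was called.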

How the data were processed

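RNA-seq of TA muscle was analysed from 3 WT control libraries and 2 libraries labelled skmNrip1-/-, grouped by the labels of the public record. Per the labels and the study's methods, the authors quantified paired-end reads with Salmon 1.10.2 on mm10 and summarized them to genes with tximport, and they deposited FPKM per gene and library. How FPKM were computed, the annotation release and any use of strand are not given in the sources used here. Columns of the authors' DESeq2 1.44.0 comparison (fold changes and adjusted p-values) were not used.

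Differences were fitted with limma 3.58.1 in R 4.3.3 (lmFit, eBayes with trend) on log2(FPKM + 0.1) with no covariates, for 12148 genes whose mean reached 0.5 FPKM. Calls took the study's thresholds (Benjamini-Hochberg adjusted p no higher than 0.05, change of 1.2-fold or more). The fit was tested on simulated data. FPKM are not counts, so no counting intervals are given. Relative depth was the inverse of the most frequent FPKM ratio to WT control replicate 1, taken over the lowest of 1981 single-transcript genes. The labels number the libraries as replicates without naming the mouse of each, so p-values measure the spread between these libraries, which may be in part technical.

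Named genes were the 10 genes, Nrip1, and in each list any called gene, the largest rise and fall, and genes with an unadjusted p of 0.01 or less. The 10 genes and all lists were chosen with earlier results of these data known. Gene positions are from GENCODE M21 (GRCm38), which holds 16996 of the gene IDs, and transcript similarity was searched with BLAST 2.17.0. Tables and figures used Python 3.11.15, pandas 2.3.3 and matplotlib 3.10.9. Alternatives were other pseudocounts, minimums, scalings and eBayes settings, a replicate block, and each library left out in turn. Labels share replicate numbers 1 and 2 between groups, but nothing says that the same number marks the same litter, batch or day.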

Additional observations from a re-analysis of the deposited data

How the results depend on the processing

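Some of the alternatives could not alter an outcome. A change of eBayes setting leaves each fold change as it was, and so did median-of-ratios rescaling. The replicate block gave the same fold changes as leaving out WT control replicate 3 (0.3242 for Tfam). With limma adjusted p of 0.276 or more in the main fit, the 10 genes could not be called at 0.01 or without the fold threshold. None of the 10 genes was called under any of 17 alternatives, and of 150 values (15 alternatives for each gene) 138 kept their direction and 12 turned. Tfam (0.03 to 0.41, adjusted p from 0.247 to 0.867) and Tfb1m (0.09 to 0.47, adjusted p from 0.27 to 0.814, limma) kept theirs in all 15. Under TPM the log2 fold changes of Polrmt (-0.23), Tfb2m (-0.084), Polg (-0.24), Ssbp1 (-0.23), Twnk (-0.11) and Gabpa (-0.0013) turned, the median of the 10 genes was -0.17, and list medians were -0.24 for replication and repair, -0.21 for nucleotide supply, 0.0022 for elongation and termination, -0.043 for RNA processing, -0.088 for nucleoid proteases and chaperones, -0.21 for NRF-1 and GABP partners and 0.26 for mtDNA-encoded mRNAs. With TPM over nuclear genes, where the median of all genes was 0.07, Polg2 was 0.056, and the medians were 0.21 (10 genes), 0.13 (nucleotide supply), 0.37 (elongation and termination) and 0.29 (nucleoid). Elongation and termination had a median of 0.20 with a pseudocount of 1, 0.33 with no minimum and 0.23 with a minimum of 1. Leaving out 1 library each gave ranges of -0.17 to 0.30 for Polrmt (below 0 without WT control replicate 2 or skmNrip1-/- replicate 1), -0.0625 to 0.035 for Polg2 (above 0 without WT control replicate 1), -0.0185 to 0.16 for Ssbp1 (below 0 without skmNrip1-/- replicate 1) and -0.46 to 0.30 for Nrf1 (above 0 without skmNrip1-/- replicate 2), 0.16 to 0.43 for Gabpa, 0.01 to 0.10 for Polg and 0.12 to 0.25 for Twnk, and medians of 0.13 to 0.21 (10 genes), -0.0125 to 0.14 (replication and repair, below 0 without skmNrip1-/- replicate 1), 0.04 to 0.11 (nucleotide supply), 0.21 to 0.38 (elongation and termination), 0.20 to 0.32 (nucleoid) and 0.01 to 0.23 (NRF-1 and GABP partners). Over all genes, 45 were called higher and 10 lower, 29 and 59 under TPM, 22 and 3 without the trend, 14 and 3 at an adjusted p of 0.01, and 6 to 51 and 2 to 15 when a library was left out. Without WT control replicate 1 they were 24 and 3, without WT control replicate 3 17 and 2, without skmNrip1-/- replicate 1 8 and 7, and without replicate 2 6 and 3. With the replicate block 18 were called higher and 4 lower. Deviations of same-numbered libraries correlated at 0.0647 and 0.0952. With 2 libraries labelled skmNrip1-/- their deviations mirror each other, so these values cannot decide whether the numbers mark pairs. The numbers were taken as names only because no label links them, and the block called none of the 10 genes. The cause of these changes was not tested. Absolute depth is unknown, and intervals no narrower than 0.47 on the log2 scale limit what could be detected for any of the 10 genes.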
